A study of Rattus norvegicus with 8 samples.

Results

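Retinoic acid genes were followed in 2 neonatal vessels, the ductus arteriosus (DA) and the aorta, in 2 inbred rat strains. The set was given as 8 symbols that span the supply, binding, breakdown and sensing of retinoic acid (Rbp4, Rdh10, Aldh1a2, Aldh1a1, Crabp2, Crabp1, Cyp26b1 and Rarb), and a gene's value was that of its brightest probe set with a single gene symbol. Of these 8 genes, 7 had such a probe set, 1 each, among the 14506 genes tested, and Rarb, a retinoic acid receptor, is not analysed here. The 4 groups were Brown-Norway (BN) DA, BN aorta, Fischer344 (F344) DA and F344 aorta, all from full-term neonates 1 h after birth, with 2 Affymetrix Rat Gene 1.0 ST arrays in each. RNA came from pooled tissues, and no label says whether the 2 replicates of a group hold different animals. The p-values thus cover only the spread among these arrays, which may be technical. BN has been used as a natural rat model of patent ductus arteriosus, F344 served as the other strain, and neither carried a transgene or received a treatment per the labels. In RNA from a whole vessel, fewer cells of a type and less RNA per cell cannot be told apart.

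Retinoic acid is made from vitamin A. Retinol travels in blood on retinol-binding protein, is oxidised to retinal by retinol dehydrogenases such as RDH10, and is oxidised again to retinoic acid by the retinaldehyde dehydrogenases of the ALDH1A group; in the embryo ALDH1A2 is the main one. In the cell CRABP proteins hold retinoic acid, CYP26 enzymes break it down, and retinoic acid receptors paired with RXR bind DNA and control target genes, among them the receptor gene Rarb itself. The pathway is known for patterning the heart's outflow vessels and pharyngeal arch arteries, and retinoic acid signalling was seen in the ductus wall of mouse embryos.

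Promoter sequences are shown for 2 members that were higher and 2 that were lower in F344 DA, so that the start regions of both kinds can be compared. RefSeq's table for the GRCr8 build held 7 of the 8 members (all but Rdh10), from 250 bases before to 50 bases after the annotated start. The first line is a DR5 repeat, 2 receptor half-sites in the same direction with 5 bases between them, the kind of element through which Rarb is known to respond to retinoic acid. It lies on the plus strand at chr15:11336416-11336432 and begins 25 bases after the Rarb start. Capitals mark its half-sites. The other lines are the promoters of the synthesis genes Aldh1a2 (chr8:80758391-80758690, plus strand) and Aldh1a1 (chr1:227537370-227537669, plus strand), then of the carrier gene Rbp4 (chr1:245313502-245313801, minus strand) and the binding protein gene Crabp2 (chr2:175714612-175714911, plus strand). In these, capitals mark the motifs described after the sequences, on either strand.
Rarb DR5: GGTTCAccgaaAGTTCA
Aldh1a2: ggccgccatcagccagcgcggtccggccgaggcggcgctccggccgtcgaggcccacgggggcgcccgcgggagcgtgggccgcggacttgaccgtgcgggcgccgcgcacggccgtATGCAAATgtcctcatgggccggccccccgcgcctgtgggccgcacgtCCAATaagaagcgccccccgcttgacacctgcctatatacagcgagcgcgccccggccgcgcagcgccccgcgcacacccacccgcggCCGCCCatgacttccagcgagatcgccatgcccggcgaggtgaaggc
Aldh1a1: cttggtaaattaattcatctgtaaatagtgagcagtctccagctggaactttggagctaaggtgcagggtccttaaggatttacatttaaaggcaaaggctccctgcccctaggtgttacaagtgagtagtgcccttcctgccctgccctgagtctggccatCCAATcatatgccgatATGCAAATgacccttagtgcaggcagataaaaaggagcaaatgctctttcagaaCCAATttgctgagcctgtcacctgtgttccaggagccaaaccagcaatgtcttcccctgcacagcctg
Rbp4: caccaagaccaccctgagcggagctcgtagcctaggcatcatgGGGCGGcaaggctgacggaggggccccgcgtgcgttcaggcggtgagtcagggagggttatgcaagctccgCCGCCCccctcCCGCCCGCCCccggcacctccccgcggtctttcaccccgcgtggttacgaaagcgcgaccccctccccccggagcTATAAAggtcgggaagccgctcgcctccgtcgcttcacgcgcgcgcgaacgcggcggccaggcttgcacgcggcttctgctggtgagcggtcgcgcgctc
Crabp2: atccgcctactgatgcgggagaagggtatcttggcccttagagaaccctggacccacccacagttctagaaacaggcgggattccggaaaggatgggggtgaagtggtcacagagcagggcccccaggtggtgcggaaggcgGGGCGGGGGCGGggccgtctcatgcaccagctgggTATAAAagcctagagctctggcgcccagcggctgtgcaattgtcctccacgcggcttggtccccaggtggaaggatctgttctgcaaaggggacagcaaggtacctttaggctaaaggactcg

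Both synthesis genes held CCAAT, which starts 85 bases before the start in Aldh1a2 and 88 and 18 bases before it in Aldh1a1. They also shared ATGCAAAT, at 133 and 72 bases before the start, a motif added after the sequences were read. Among the 33469 promoters of the table, 37.5% held CCAAT and 1.78% held ATGCAAAT on either strand. TATAAA stood 50 bases before the start of Rbp4 and 73 bases before that of Crabp2 and occurred in 14.2% of promoters, but was not in Cyp26b1, the other gene that was lower in F344 DA, whose window held none of the motifs searched. GGGCGG was in Aldh1a2, Crabp1, Crabp2 and Rbp4 and in 33.1% of promoters. A DR5 repeat was found in Rarb alone of the 7 members, against 0.639% of promoters, and DR1 and DR2 (1 and 2 bases between half-sites) and the exact half-site AGGTCA in none of them, against 0.583%, 0.409% and 16.2%. The Aldh1a2 window was 76% G and C and the Aldh1a1 window 48.3%. A match says only that these letters are present in this window, and none was tested for function.

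Before the members are described, some facts of the arrays bear on them. Smooth muscle genes were bright on every array, with Acta2, the smooth muscle actin gene, between 13.64 and 13.82 log2 units, and Tfap2b, a transcription factor gene known to mark the ductus, lay between 9.25 and 9.92 on the DA arrays and between 5.51 and 6.75 on the aorta arrays. The BN DA arrays stood apart from each other, and the SD of their replicate difference over genes was 0.349, against 0.196 to 0.258 in the other groups. BN DA replicate 1 carried lymphocyte and thymocyte markers (mean of 7 markers 7.06, against 5.76 to 5.84 on the other 7 arrays). On BN DA replicate 2 the mean of 8 cardiac muscle markers was 7.36, against 6.65 to 6.91 on the other arrays. That mean was raised mainly by Tnnt2 (9.24, against 7.47 on replicate 1) and Actc1 (9.71, against 7.98). Nppa (6.17, against 6.06) and Ryr2 (7.51, against 7.36) were slightly higher, and Myh6, Myh7, Tnni3 and Myl7 were not higher on replicate 2. The members' results in BN DA are therefore given with and without each array. Dim genes as a class shifted between the vessels: genes at or under the median level had a median difference, DA minus aorta, of 0.15 in F344 and 0.04 in BN. For the 1283 chemosensory receptor genes it was larger, 0.79 in F344 and 0.39 in BN.

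**Figure D1:**
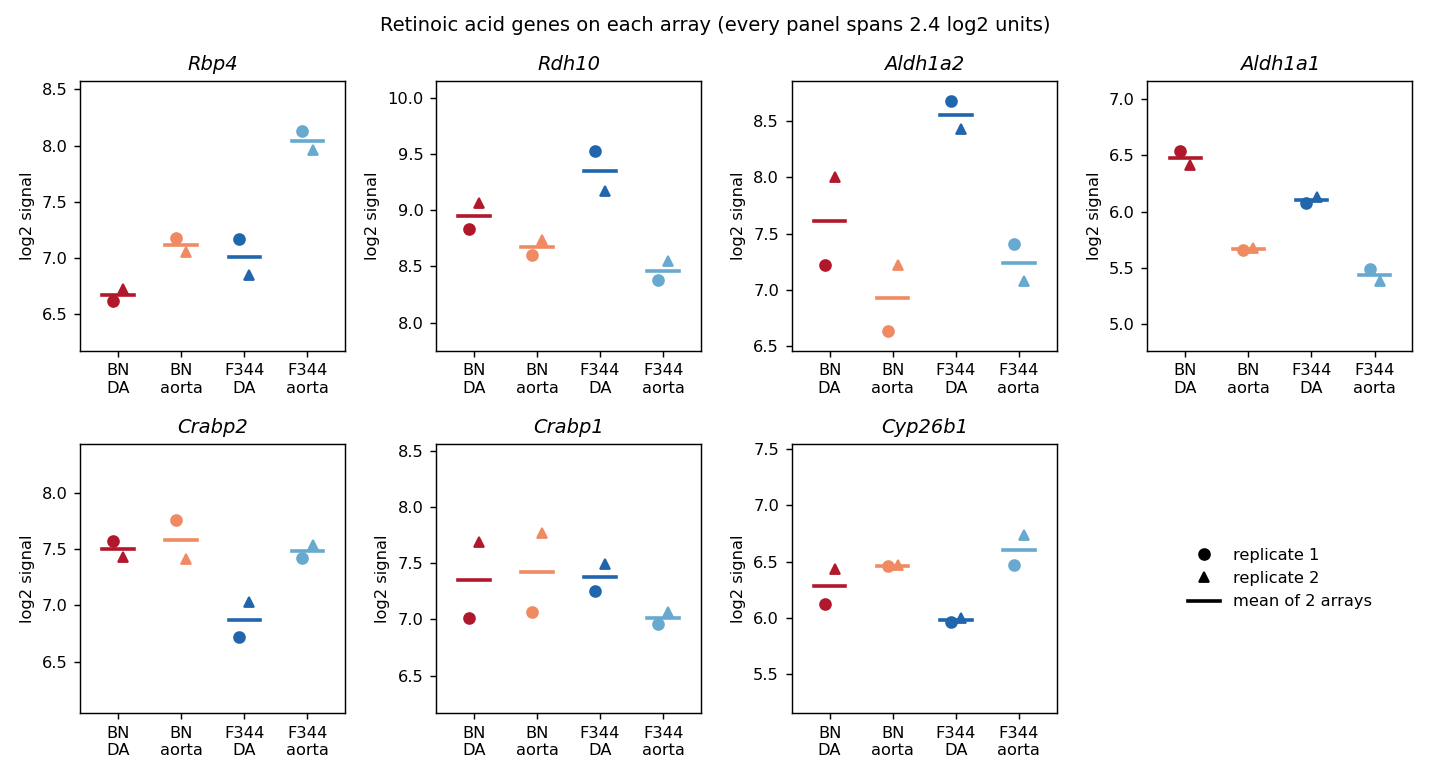
Log2 signal of the 7 measured genes on each array (vertical axis, each panel 2.4 log2 units tall) by group (horizontal axis), with circles for replicate 1, triangles for replicate 2 and bars for the mean of 2 arrays. Aldh1a2 and Rdh10 are highest in F344 DA and Rbp4 is highest in F344 aorta, while Aldh1a1 is above the aorta of its strain in both DA groups.

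In F344, 3 members that act in retinoic acid synthesis were higher in DA than in aorta, and the carrier gene Rbp4, the binding protein gene Crabp2 and the breakdown gene Cyp26b1 were lower. Aldh1a2, Rdh10 and Aldh1a1 rose by 2.49-fold, 1.85-fold and 1.59-fold, and Rbp4, Cyp26b1 and Crabp2 were 2.05-fold, 1.54-fold and 1.52-fold lower. Of the 7 genes, limma called 3 higher and 3 lower (adjusted p under 0.05, Benjamini-Hochberg over every gene tested), where 14% of all genes were called, 8.87% higher and 5.12% lower. The members were chosen with results of these data known, so this count is a description of the set.

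The synthesis genes are described first, in the order of the pathway. Rdh10, whose enzyme makes retinal from retinol, had 9.52 and 9.17 log2 units in F344 DA and 8.38 and 8.55 in F344 aorta. The lower DA array was above the higher aorta array, and the difference was 0.89 ± 0.16 (SE; limma adjusted p = 0.00672). Aldh1a2, which makes retinoic acid from retinal, had 8.68 and 8.43 in F344 DA and 7.41 and 7.08 in F344 aorta. The groups lay more than 1 log2 unit apart with no overlap, and the difference was 1.31 ± 0.27 (SE; limma adjusted p = 0.0127). Aldh1a1, a second enzyme of that step, was dim, with 6.08 and 6.12 in F344 DA and 5.49 and 5.38 in F344 aorta. Replicates lay close together and the groups did not overlap, with a difference of 0.66 ± 0.12 (SE; limma adjusted p = 0.00699). Its probe set is paired with 2 RefSeq transcripts, of which 1 belongs to Aldh1a1 and 1 is not in RefSeq's current gene table, so a related copy may contribute to its signal.

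Signal level matters for the reading of these values. The genes whose mean level lay in the same step of 0.5 log2 units as Aldh1a1, 5.5 to 6, had a median difference of 0.27 in F344, in the direction of Aldh1a1. For Rdh10 and Aldh1a2 the genes of the same level had medians of -0.20 and -0.16, opposite to the difference of each. For Rbp4 and Crabp2 that median was -0.11, and for Cyp26b1 it was 0.15, opposite to its difference. The call of Aldh1a1 was lost when quantile normalization was repeated (difference 0.41, limma adjusted p = 0.0736) and after cyclic loess (0.46, limma adjusted p = 0.0608). Cyclic loess also removed the call of Crabp2. After centring on the brighter genes, which moved the median difference of all genes to 0.16 from -0.04, the calls of Crabp2 (difference -0.40, limma adjusted p = 0.131) and Cyp26b1 (-0.41, limma adjusted p = 0.126) were lost.

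**Figure D2:**
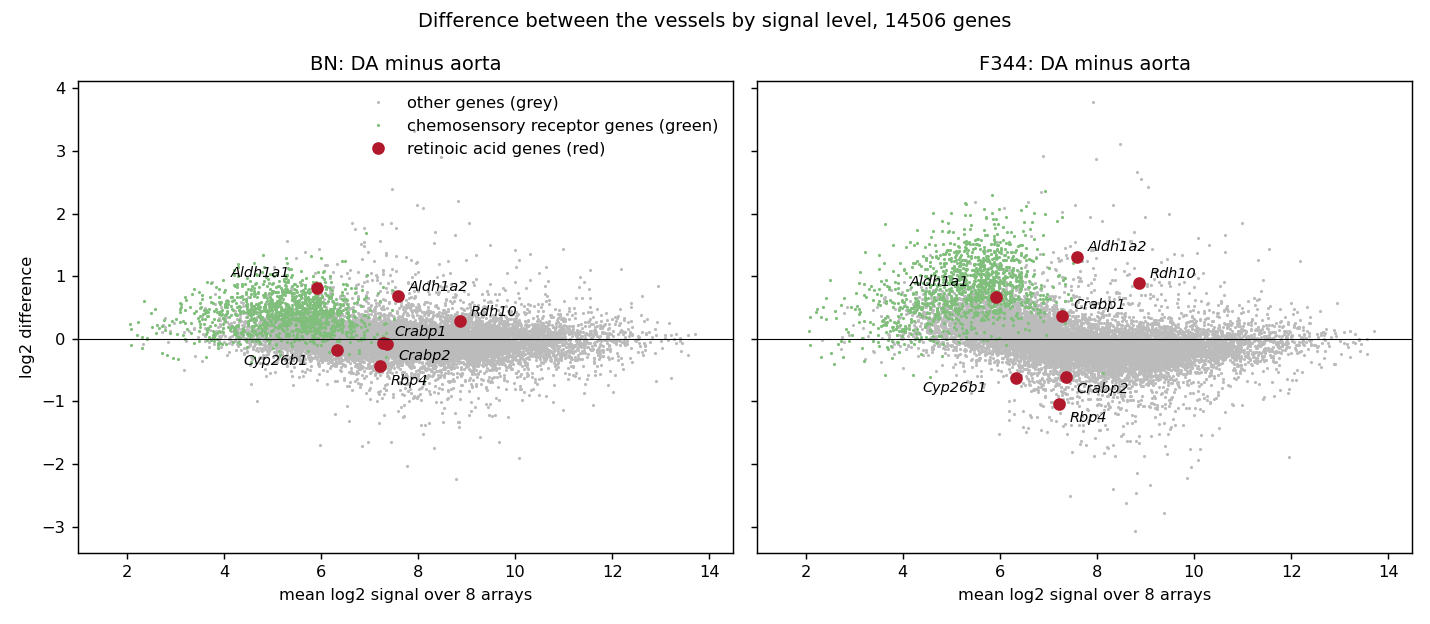
Difference DA minus aorta (vertical axis, log2) against the mean log2 signal over 8 arrays (horizontal axis) for 14506 genes in BN and in F344, with chemosensory receptor genes in green, other genes in grey and the 7 retinoic acid genes in red. The chemosensory receptor genes have a median above 0 in both strains and Aldh1a1 lies at the level of the brighter ones, whereas Cyp26b1, Crabp2 and Rbp4 lie below 0 in F344 and Aldh1a2 and Rdh10 lie above 0.

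Carriage, binding and breakdown genes came next. Rbp4, the carrier of retinol in blood, had 7.17 and 6.85 in F344 DA and 8.13 and 7.96 in F344 aorta. Both DA arrays were below both aorta arrays, and the difference was -1.03 ± 0.15 (SE; limma adjusted p = 0.00267). Of the members, Rbp4 had the smallest p in F344, and this call held under each alternative fit, with adjusted p between 0.000355 and 0.0322. Crabp2, a binding protein known to carry retinoic acid to its receptors, had 6.72 and 7.03 in F344 DA and 7.42 and 7.54 in F344 aorta. No DA array reached the aorta arrays, and the difference was -0.61 ± 0.16 (SE; limma adjusted p = 0.0369). Cyp26b1, an enzyme that breaks down retinoic acid, had 5.96 and 6.001 in F344 DA and 6.47 and 6.74 in F344 aorta. Here too the arrays did not overlap, with a difference of -0.62 ± 0.15 (SE; limma adjusted p = 0.0222). Crabp1, the other cellular binding protein, had 7.25 and 7.49 in F344 DA and 6.95 and 7.06 in F344 aorta and did not pass (0.36 ± 0.26 SE, limma adjusted p = 0.38). In all 7 genes the F344 arrays of the vessels did not overlap, as in 67.4% of all genes: 4 had DA above aorta (29.6% of all genes) and 3 had DA below it (37.8%).

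With 1 of the 4 F344 arrays left out, the differences of the 6 called genes kept their direction, but fewer were called. The number called was 2 without F344 DA replicate 1, 2 without F344 DA replicate 2, 3 without F344 aorta replicate 1 and 2 without F344 aorta replicate 2. Crabp2 and Cyp26b1 were not called in any of these 4 fits. Without F344 DA replicates 1 and 2 Aldh1a2 had differences of 1.19 (limma adjusted p = 0.0888) and 1.44 (adjusted p = 0.0627), and without F344 aorta replicate 2 it had 1.15 (adjusted p = 0.0911). Rdh10 was not called without F344 DA replicate 1 (0.71, limma adjusted p = 0.0532) or without F344 aorta replicate 1 (0.80, adjusted p = 0.0676), and Aldh1a1 not without replicate 2 of F344 DA (0.64, adjusted p = 0.0626) or of F344 aorta (0.61, adjusted p = 0.0668).

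**Figure D3:**
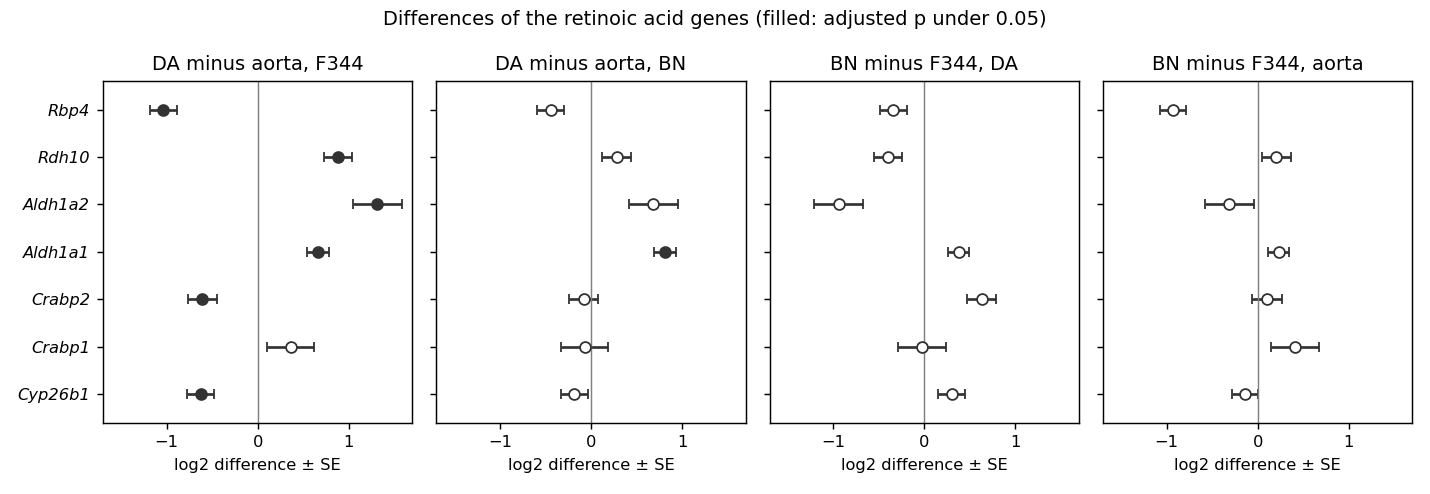
Log2 difference with its standard error (horizontal axis) of each of the 7 genes (vertical axis) in the 4 comparisons, with filled circles for a limma adjusted p under 0.05. In F344 6 genes are filled, with Rbp4, Crabp2 and Cyp26b1 to the left of 0 and Rdh10, Aldh1a2 and Aldh1a1 to the right, and in BN Aldh1a1 is filled.

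In BN, Aldh1a1 was higher in DA than in aorta and was the 1 member called of 7, where 1.81% of all genes were called, 0.986% higher and 0.82% lower. It had 6.54 and 6.42 log2 units in BN DA, against 5.66 and 5.67 in BN aorta, 1.76-fold higher. Both DA arrays were clear of both aorta arrays, and the difference was 0.81 ± 0.12 (SE; limma adjusted p = 0.0141). Genes in the same step of level had a median difference of 0.09 in BN. The difference was 0.75 without BN DA replicate 1 (limma adjusted p = 0.0196) and 0.87 without BN DA replicate 2 (adjusted p = 0.0102). The call was lost without BN aorta replicate 1 (0.81, limma adjusted p = 0.122), without BN aorta replicate 2 (0.82, adjusted p = 0.0623) and in a fit with the 4 BN arrays alone (0.81, adjusted p = 0.123).

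The other synthesis genes did not pass in BN. Aldh1a2 had 7.22 and 8.001 in BN DA, against 6.64 and 7.22 in BN aorta. Replicate 2 was the higher one in each vessel, and the lower DA array was level with the higher aorta array to 2 decimals. The difference was 0.68 ± 0.27 (SE; limma adjusted p = 0.296), and it was 1.07 without BN DA replicate 1 (adjusted p = 0.0379) and 0.29 without BN DA replicate 2 (adjusted p = 0.651). Means of several marker lists were also higher on BN DA replicate 2 than on replicate 1. They were macrophage (8.13 and 7.59), cardiac (7.36 and 6.90), mesothelial (7.66 and 7.21), fibroblast (10.53 and 10.24) and neuronal (6.44 and 6.19). Adipocyte and Schwann means were higher by less, and lymphocyte, erythroid, endothelial and smooth muscle means were lower. In BN aorta the mesothelial mean was 7.38 on replicate 2 and 7.42 on replicate 1. The part of these cell types in the Aldh1a2 values was not tested. Rdh10 had 8.84 and 9.06 in BN DA, against 8.61 and 8.73 in BN aorta. These arrays did not overlap, and the difference was 0.28 ± 0.16 (SE; limma adjusted p = 0.497), or 0.40 without BN DA replicate 1 and 0.17 without BN DA replicate 2.

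Carriage, binding and breakdown genes lay closer together in BN. Rbp4 had 6.62 and 6.72 in BN DA, against 7.18 and 7.05 in BN aorta, with a difference of -0.44 ± 0.15 (SE; limma adjusted p = 0.196). Its DA arrays were again below its aorta arrays, but the call was not made, with -0.39 without BN DA replicate 1 and -0.50 without BN DA replicate 2. Cyp26b1 had 6.13 and 6.44 in BN DA, against 6.46 and 6.47 in BN aorta (-0.18 ± 0.15 SE, limma adjusted p = 0.683). Crabp2 had 7.58 and 7.43 in BN DA, against 7.76 and 7.41 in BN aorta, and its groups overlapped (-0.08 ± 0.16 SE, limma adjusted p = 0.908). Crabp1 had 7.01 and 7.69 in BN DA, against 7.06 and 7.77 in BN aorta (-0.07 ± 0.26 SE, limma adjusted p = 0.955). In Crabp1 the replicates of each BN vessel lay farther apart than the vessels did, and replicate 2 was higher than replicate 1 in all 4 groups. Without BN DA replicate 1 the BN differences were 0.27 for Crabp1, of opposite sign, -0.15 for Crabp2 and -0.03 for Cyp26b1. Without BN DA replicate 2 they were -0.41, -0.01 and -0.34, and none of these was called. The arrays of the BN vessels did not overlap in 5 of the 7 genes, against 37.3% of all genes, with DA above aorta in 3 (18.7% of all genes) and below it in 2 (18.5%).

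The interaction, the vessel difference in BN minus that in F344, tests whether strain changed it. Limma called 0 of the 7 genes and 0% of all genes, of which 1403 had an unadjusted p under 0.05. At an unadjusted p under 0.05 there were 3 of the 7, Rbp4 at 0.59 ± 0.21 (SE; limma adjusted p = 0.437), Rdh10 at -0.60 ± 0.22 (adjusted p = 0.449) and Crabp2 at 0.53 ± 0.23 (adjusted p = 0.506). For these 3 genes the difference between the vessels was smaller in size in BN than in F344. Aldh1a2 had an interaction of -0.63 ± 0.38 (95% interval -1.49 to 0.23) and Aldh1a1 of 0.15 ± 0.17 (-0.23 to 0.53), intervals that include 0. A difference called in F344 and not in BN is therefore not shown to differ between the strains for any of the members.

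The strains were also compared within each vessel. In DA, limma called 0 of the 7 genes between BN and F344, where 4.53% of all genes were called (2.43% higher and 2.1% lower in BN). At an unadjusted p under 0.05 there were 5 of the 7, and 3301 of the 14506 genes tested. Aldh1a2 had 7.22 and 8.001 in BN DA, against 8.68 and 8.43 in F344 DA, so that both BN arrays were below both F344 arrays (-0.94 ± 0.27 SE, limma adjusted p = 0.0774). Without BN DA replicate 2 this difference was -1.33 and passed (limma adjusted p = 0.0141), and without BN DA replicate 1 it was -0.55 and did not (adjusted p = 0.206). Crabp2 differed the other way, with 7.58 and 7.43 in BN DA, against 6.72 and 7.03 in F344 DA (0.63 ± 0.16 SE, limma adjusted p = 0.0599). Differences of the remaining members were 0.38 ± 0.12 for Aldh1a1, 0.30 ± 0.15 for Cyp26b1, -0.34 ± 0.15 for Rbp4, -0.40 ± 0.16 for Rdh10 and -0.02 ± 0.26 for Crabp1 (SE). Leaving out BN DA replicate 1 gave 0.56 for Crabp2, 0.32 for Aldh1a1, 0.46 for Cyp26b1, -0.28 for Rbp4, -0.28 for Rdh10 and 0.31 for Crabp1. Leaving out BN DA replicate 2 gave 0.70, 0.44, 0.15, -0.39, -0.51 and -0.36 in the same order of genes. None of these 12 passed, and Crabp1 changed sign. Arrays of the strains did not overlap in 6 of the 7 genes in DA, all but Crabp1, against 50.1% of all genes, with BN above in 3 (25.9% of all genes) and below in 3 (24.3%).

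In aorta, the strains differed most in Rbp4 among the members. It had 7.18 and 7.05 in BN aorta and 8.13 and 7.96 in F344 aorta, with both BN arrays below both F344 arrays. That is 1.91-fold lower in BN (-0.93 ± 0.15 SE), with a limma adjusted p of 0.0609 that missed the threshold, in a comparison in which 0.159% of all genes were called, 0.0827% higher and 0.0758% lower in BN. The same difference passed in 8 of 18 alternative fits, with adjusted p between 0.02 and 0.642 over all 18. Limma called 0 of the 7 genes, and Rbp4 was the 1 member with an unadjusted p under 0.05, as were 757 of the 14506 genes tested. The other members had differences between -0.31 for Aldh1a2 and 0.41 for Crabp1, and arrays of the strains did not overlap in 4 of the 7 genes, against 35.7% of all genes, with BN above in 2 (17.9% of all genes) and below in 2 (17.8%).

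Across the 4 groups, the members had different orders of level. Rbp4 fell into the order F344 aorta (8.04 ± 0.12), BN aorta (7.11 ± 0.09), F344 DA (7.01 ± 0.23) and BN DA (6.67 ± 0.08; SD, n = 2 each), and BN aorta and F344 DA lay within their spread of each other. Aldh1a2 was highest in F344 DA (8.55 ± 0.18), followed by BN DA (7.61 ± 0.55), F344 aorta (7.24 ± 0.23) and BN aorta (6.93 ± 0.41). F344 aorta overlapped both BN groups, and BN DA and BN aorta met to 2 decimals. Rdh10 had the order F344 DA (9.35 ± 0.25), BN DA (8.95 ± 0.16), BN aorta (8.67 ± 0.09) and F344 aorta (8.46 ± 0.12), with no overlap between neighbours. Aldh1a1 was arranged as BN DA (6.48 ± 0.09), F344 DA (6.10 ± 0.03), BN aorta (5.66 ± 0.01) and F344 aorta (5.44 ± 0.08), also without overlap. Crabp2 stood out by 1 low group, F344 DA (6.87 ± 0.22), beside BN DA (7.50 ± 0.10), F344 aorta (7.48 ± 0.08) and BN aorta (7.59 ± 0.25), which overlapped each other. Cyp26b1 was likewise lowest in F344 DA (5.98 ± 0.03), then BN DA (6.28 ± 0.22), BN aorta (6.46 ± 0.00) and F344 aorta (6.60 ± 0.19), and the lower F344 aorta array lay less than 0.01 above the BN aorta arrays. Crabp1 ranged over 0.82 log2 units, and its group means, from 7.01 to 7.42, spanned less than the distance between the replicates of either BN vessel.

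The genes whose pattern over the 8 arrays was most like that of each called member were ranked by Pearson's r over 13212 genes, without chemosensory receptor and predicted genes. These r values describe 8 arrays that share 4 groups and 1 normalization. For Aldh1a2 they were the calcium channel gene Trpv6 (0.99), Ssc5d (0.98) and Ccdc196 (0.98), and for Rdh10 the glutamate receptor gene Grik1 (0.99), Tvp23a (0.98) and Cst13 (0.98). Ccdc196, Grik1 and Cst13 were dim, with means of 4.83, 4.91 and 3.61 over the 8 arrays. Genes in the same step of level as Ccdc196 and Grik1 had a median difference of 0.40 in F344, in the direction of both. Aldh1a1 was followed by the cation channel gene Trpm3 (0.99), the receptor tyrosine kinase gene Erbb4 (0.99) and the calcium channel subunit gene Cacnb2 (0.99). Rbp4 was nearest to Kank4 (0.97), the transcription factor gene Klf6 (0.97) and Pcnx3 (0.96), Crabp2 to Plekhn1 (0.99), Gigyf2 (0.98) and Mtfmt (0.98), and Cyp26b1 to Sh3rf1 (0.98), the growth factor gene Hbegf (0.98) and the zinc transporter gene Slc39a11 (0.97). Of the genes nearest to each member, Trpm3 had differences of 0.85 ± 0.12 in F344 and 0.92 ± 0.12 in BN (SE; limma adjusted p = 0.00307 and 0.0101), and Kank4 of -0.97 ± 0.12 and -0.60 ± 0.12 (adjusted p = 0.0014 and 0.0383). Erbb4 also passed in both strains, with 0.66 ± 0.12 and 0.85 ± 0.12 (SE; limma adjusted p = 0.00729 and 0.0125). Of the other genes named first for a member, Grik1 and Plekhn1 passed in F344 alone. Trpv6 (0.35 in F344 and 0.11 in BN) and Sh3rf1 (-0.42 and -0.15) passed in neither strain. Trpv6 ranged over 0.48 log2 units on the 8 arrays, against 2.05 for Aldh1a2, a gap in size that r does not show.

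**Figure D4:**
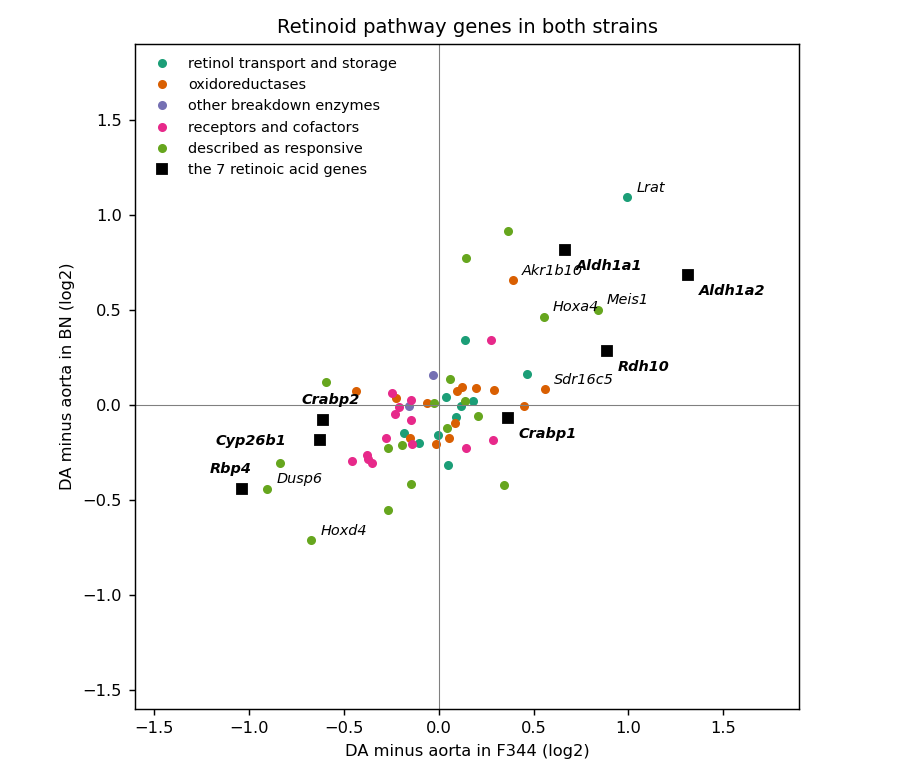
Log2 difference DA minus aorta in F344 (horizontal axis) and in BN (vertical axis) of the 7 retinoic acid genes (black squares) and 59 other genes of the pathway (circles coloured by list), with names for genes that passed in either strain. Lrat lies near 1 on both axes, and the 14 receptors and cofactors, none named, lie between -0.46 and 0.29 in F344.

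The rest of the pathway was described from 5 lists with 81 genes, of which 59 were tested. In F344, 4 of the 59 rose and 2 fell in DA (10.2% called, against 14% of all genes), and in BN 2 rose and 1 fell (5.08%, against 1.81%). Between strains in DA 1 of the 59 was called (1.69%, against 4.53% of all genes). These counts moved with 1 BN DA array left out: up in F344 and between strains, and up or down in BN. Called counts over all genes also ranged widely between fits, as given at the end, so such moves are not read as results about these lists. The gene that rose in both strains was Lrat, whose enzyme stores retinol as an ester. It had 7.92 and 7.89 in F344 DA and 6.92 and 6.90 in F344 aorta (0.99 ± 0.19 SE, limma adjusted p = 0.00939). The BN arrays read 8.03 and 7.39 for DA and 6.72 and 6.51 for aorta (1.09 ± 0.19 SE, limma adjusted p = 0.0282). In both strains every DA array was above every aorta array. The BN difference was 0.78 without BN DA replicate 1 (limma adjusted p = 0.021) and 1.41 without BN DA replicate 2 (adjusted p = 0.00103), and Lrat was also called in both strains after repeated quantile normalization, cyclic loess and centring on brighter genes.

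Retinol transport and storage held 11 tested genes, of which Lrat alone rose and 0 fell in each strain (median difference 0.09 in F344 and -0.01 in BN). Stra6, the receptor that takes retinol from its blood carrier into cells, had differences of 0.12 in F344 and -0.01 in BN. Of 14 tested oxidoreductases of retinol and retinal, 1 rose in F344, Sdr16c5 by 0.56 (limma adjusted p = 0.0222), and 1 in BN, Akr1b10 by 0.65 (adjusted p = 0.0427), and 0 fell. In F344 Akr1b10 had 0.39 ± 0.13 (SE, limma adjusted p = 0.0779), and it was called there after centring on the brighter genes. Its interaction was 0.26 ± 0.18 (SE, limma adjusted p = 0.691), so its difference is not shown to be particular to BN. Sdr16c5 was dim, between 4.50 and 5.11 on all arrays, and it was not called after repeated quantile normalization or cyclic loess. Genes in its step of level had a median difference of 0.40 in F344, in the direction of Sdr16c5. Akr1b10 was not called without BN DA replicate 2 (0.62, limma adjusted p = 0.074) or after centring (0.70, adjusted p = 0.068), and it was called without BN DA replicate 1 (0.69, adjusted p = 0.0397). Dhrs3, whose enzyme turns retinal back into retinol, had 10.77 and 10.27 in BN DA, against 11.19 and 11.34 in F344 DA, a difference of -0.74 ± 0.18 (SE) just outside the threshold (limma adjusted p = 0.0506). It passed without BN DA replicate 1 (-0.996, limma adjusted p = 0.00987) and not without BN DA replicate 2 (-0.49, adjusted p = 0.0951). It also passed after centring on the brighter genes, repeated quantile normalization and cyclic loess (limma adjusted p = 0.0405, 0.0435 and 0.0385). Between the vessels Dhrs3 had differences of 0.45 ± 0.18 in F344 and -0.00 ± 0.18 in BN (SE; limma adjusted p = 0.131 and 0.996). Dhrs3 was called in F344 after centring on the brighter genes, and also in the fits without either BN DA array. Aldh1a3, the other enzyme of the ALDH1A group, had differences of -0.43 ± 0.22 in F344 and 0.07 ± 0.22 in BN (SE), and neither passed. It was called in F344 in the fits without either BN DA array, and between strains in DA without BN DA replicate 1.

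The receptors and cofactors, 14 tested genes, had 0 called in either strain, with medians of -0.22 in F344 and -0.18 in BN, beside -0.04 and -0.00 for all genes. In F344 the differences were -0.46 ± 0.15 for Rara, -0.37 ± 0.14 for Rarg, -0.38 ± 0.15 for Rxra and -0.35 ± 0.14 for Rxrb (SE; limma adjusted p = 0.0737, 0.124, 0.123 and 0.138). Rara was called lower in F344 DA in the fits without either BN DA array. The brighter part of all genes had a median of -0.17 in F344 and -0.04 in BN. In BN those 4 receptor genes had differences between -0.31 and -0.26. Cyp26a1, the other breakdown enzyme measured beside Cyp26b1, had differences of -0.03 in F344 and 0.16 in BN, and Cyp2s1 of -0.15 and -0.00.

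Genes described as responsive to retinoic acid in other settings moved in both directions. Of 18 tested, 2 rose in F344 DA, Meis1 by 0.84 ± 0.14 and Hoxa4 by 0.55 ± 0.12 (SE; limma adjusted p = 0.00481 and 0.017), and 2 fell, Dusp6 by 0.90 and Hoxd4 by 0.67 (adjusted p = 0.00642 and 0.017). After centring on the brighter genes Hoxd4 was at -0.46 in F344 and was not called (limma adjusted p = 0.082). In BN 0 rose and Hoxd4 fell by 0.71 (limma adjusted p = 0.0493, and 0.0841 and 0.0234 with BN DA replicate 1 or 2 left out). Hoxd4 was not called in BN after repeated quantile normalization (-0.72, limma adjusted p = 0.0511) or centring (-0.66, adjusted p = 0.0946). After cyclic loess Isl1 was called higher and Nr2f1 lower in BN DA. As deposited, Isl1 and Tbx5 had BN differences of 0.92 ± 0.21 and 0.77 ± 0.29 (SE) and did not pass. Both were higher on BN DA replicate 2 (7.78 and 7.33), the array with raised Tnnt2 and Actc1, than on replicate 1 (7.36 and 6.27). Meis1 and Hoxa4 encode homeodomain transcription factors, as Hoxd4 does, and Dusp6 encodes a phosphatase of ERK kinases. Between the strains, Hoxa5 was lower in BN DA, at 10.03 and 9.97, than in F344 DA, at 10.89 and 11.09 (-0.99 ± 0.15 SE, limma adjusted p = 0.0138). Leaving out BN DA replicate 1 gave -1.02 (limma adjusted p = 0.0127) and leaving out BN DA replicate 2 gave -0.96 (adjusted p = 0.0154). Tgm2, a transglutaminase gene often used as a readout of retinoic acid, had differences of 0.21 in F344 and -0.06 in BN, and neither passed.

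Cell type markers also moved with vessel or replicate, and their part in the values above was not tested. Beside the counts below, 14% of all genes were called in F344, 1.81% in BN and 4.53% between strains in DA. The interaction called 0% of all genes, so a count that differs between F344 and BN is not shown to be a strain difference. In F344, 6 of 11 endothelial markers fell and 0 rose, with list means of 8.73 and 8.66 in DA and 9.25 and 9.26 in aorta, while in BN 0 of 11 passed (9.24 and 8.88 in DA, 9.06 and 9.07 in aorta). Of 9 fibroblast markers 3 fell in F344 (10.24 and 10.15 in DA, 10.67 and 10.61 in aorta) and 2 in BN (10.24 and 10.53 in DA, 10.69 and 10.69 in aorta). Of 8 smooth muscle markers 2 rose in F344 and 0 in BN. Mesothelial and epicardial markers are given because those cells are known to express Aldh1a2. Of 8 tested, 0 rose and 2 fell in F344, Krt8 (-1.80) and Krt18 (-1.36), with list means of 7.15 and 7.15 in DA and 7.69 and 7.37 in aorta. The other 6 had differences of 0.54 for Bnc1, 0.13 for Upk1b, 0.08 for Krt19, -0.02 for Wt1, -0.28 for Tbx18 and -0.34 for Msln, and none of them passed. In BN 0 rose and Krt8 fell, and the list means were 7.21 and 7.66 in DA and 7.42 and 7.38 in aorta, while those of 8 cardiac markers were 6.90 and 7.36 in DA and 6.67 and 6.91 in aorta. Of 6 macrophage markers, 2 fell in F344, Csf1r (-0.99) and C1qa (-0.49), with list means of 7.37 and 7.32 in DA and 7.98 and 7.75 in aorta, and 0 passed in BN (7.59 and 8.13 in DA, 8.22 and 8.27 in aorta). Between strains in DA, the endothelial gene Sox17 (0.63) and Krt8 (0.77) were called higher in BN, and the macrophage markers had a median of 0.45 with 0 called. Adipocyte markers, given because fat is known to make Rbp4, had list means between 6.12 and 6.32 on all 8 arrays, with 0 of 6 called in any of the 4 comparisons. In every group replicate 1 carried more erythroid signal, with list means of the 6 markers from 8.28 to 9.41 on replicates 1 and from 7.51 to 7.98 on replicates 2.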

How the data were processed

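The authors deposited 1 table of log2 values for 29215 probe sets on 8 arrays. The submitters' processing notes name RMA (background correction, normalization between arrays and probe set summary), with no version or settings stated there. The log2 scale was taken from the values, which lie between 1.07 and 14.2, with array medians from 6.96 to 7.05. Per the labels, 150 ng of total RNA from pooled tissue was labelled for each array. The platform annotation of 2016 gave 1 symbol for 15310 probe sets, several for 323 and none for 13582, and the brightest probe set of each gene was kept (14506 genes). No depth applies to arrays, and their number limits the precision.

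Differences were tested with limma 3.58.1 in R 4.3.3, 1 mean per group over all 8 arrays (4 residual and 5.25 prior degrees of freedom), two-sided, with Benjamini-Hochberg adjustment over all genes and a threshold of 0.05. The procedure was tested on simulated data. The members, the lists and the rule for named genes (the 8 members, up to 6 called genes per related list and comparison, and the 3 genes most like each called member) were chosen with earlier results of these data known. Stra6, Tgm2, Dhrs3, Aldh1a3, the RAR and RXR genes, Cyp26a1 and Cyp2s1 were named for their roles, after their values were seen. Motifs were searched on both strands. The fit was repeated with a mean-variance trend, without dim genes, after a further quantile normalization, with arrays centred on the brighter genes, with all probe sets of a gene averaged, with weights for arrays, with a block for replicate number, on the 4 arrays compared and without each array in turn. Cyclic loess and a fit without chemosensory receptor genes (olfactory, vomeronasal, taste and trace amine receptor symbols) were chosen after seeing the data.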

Additional observations from a re-analysis of the deposited data

How the results depend on the processing

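In F344 the number of the 7 genes called was 6 as deposited (3 higher, 3 lower) and ranged from 2 to 6 over the fits with 1 array left out. Centring on the brighter genes gave 4 (3 higher, 1 lower), a second quantile normalization 5 (2 and 3) and cyclic loess 4 (2 and 2). Of 123 values of the 7 genes in F344 over the alternatives, 103 stayed on their side of the threshold and 20 lost the call. Over all genes, 63.4% of calls were higher as deposited and 87.6% after centring in F344, and 53.7% and 23.7% between strains in DA. In BN it was 1, with 0 in the fit of the 4 BN arrays and 0 without dim genes, a fit that leaves out Aldh1a1, Cyp26b1 and Crabp1, and it ranged from 0 to 2 with 1 array left out. Between strains in DA it was 0, 1 with the replicate block (Crabp2) and 0 to 1 with 1 array left out. In aorta it was 0, and Rbp4 made it 1 with a mean-variance trend, without dim genes, with array weights, with the replicate block, with the 4 aorta arrays alone and without chemosensory receptor genes, and 0 to 1 with 1 array left out. The interaction had 0 in all 17 alternatives. Replicate numbers are shared by the 4 groups, but no label says what they mark. Deviations of same-numbered arrays correlated between 0.03 and 0.52 over the 6 pairs of groups, and with the replicate block the called counts over all genes were 2875, 548 and 1583 for F344, BN and DA between strains, against 2028, 262 and 657. Among related genes the block added calls of Dhrs3, Ppard and Isl1 between strains in DA, Nr2f1 and Isl1 in BN and Rarres2 in F344. With 1 array left out, sign changed, with no call, for Crabp1 in BN (range -0.42 to 0.28, and 0.27 without BN DA replicate 1) and between strains in DA (-0.36 to 0.31, and 0.10 without F344 DA replicate 2), and for Crabp2 in BN (-0.26 to 0.10) and between strains in aorta (-0.072 to 0.28). Centring turned the interaction of Aldh1a1 to -0.011. Where a cause is not named, it was not tested. Called counts over all genes ranged from 646 to 3710 in F344, 16 to 600 in BN, 13 to 1583 between strains in DA and 0 to 69 in aorta.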
